A study of Mus musculus with 58 samples.

Results

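The stimulus strength response of CD4+ T cells without the miR-17-92 microRNA cluster was measured in 16 of the 58 RNA-seq libraries of the series. The members were taken by label: knockout (KO) libraries given a weak stimulus were set against KO libraries given a very weak one, in pairs of equal time and replicate number. KO cells carry the genotype T1792 delta/delta, in which a Cre recombinase under Cd4 control removes loxP-flanked miR-17-92. All 16 libraries share this deletion and the Cre. Naive CD4+ T cells came from lymph nodes and spleen pooled from 10 male and female mice, whose ages the labels do not give. Culture lasted 24 h or 48 h. The plate coat held anti-CD3 at 0.25 µg/ml (very weak) or 0.5 µg/ml (weak), together with anti-CD28 at 0.2 µg/ml in both cases. The medium of every group held IL-2 at 50 U/ml. There were 4 libraries for each stimulus and time. The same design was carried out in 16 libraries of wild-type (WT) cells and 16 of cells with an added miR-17-92 transgene (TG, T1792 tg/tg), which serve below only to show where KO cells differ. Nothing in the labels says whether equal numbers came from separate mouse pools, so p-values measure the spread between these libraries.

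Anti-CD3 clusters the T cell receptor complex, and the kinases Lck and Zap70 then start calcium, Ras and protein kinase C signalling. These branches reach the nucleus through the factors NFAT, AP-1 and NF-kB, which drive cytokine genes such as Il2, while CD28 adds a costimulatory signal. The dose of anti-CD3 sets how much receptor is engaged. Some targets respond in proportion to that dose and others reach their full level at a low dose. The miR-17-92 cluster is induced on activation and is known in T cells for repressing brakes such as Bcl2l11.

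The label of the cells held in the files. The 7 CD4 T cell markers Cd3e, Cd3d, Cd3g, Cd4, Lck, Cd2 and Thy1 summed to between 2150 and 3320 counts per 1000000 (CPM) in the 16 KO libraries. Cd8a ranged from 1.72 to 6.46 CPM and the macrophage receptor gene Csf1r from 0 to 0.247 CPM. Over the 16 KO libraries, the cluster's own hairpin genes Mir17, Mir18 and Mir20a each had 2 counts and Mir19a had 0, against 57, 61, 83 and 72 counts over the 16 stimulated WT libraries. The host gene Mir17hg was not lost, with 37651 counts over the KO and 12340 over the WT libraries. Each KO library held 19.2 to 20.3 M counts, with a median of 19.5 M, and 2.74 to 4.18 M further counts in introns. The lowest intronic share, 12.4%, was that of the very weak 48 h library of replicate 3. The replicates also differed in Xist, the RNA of the inactive X chromosome, which was at 45.8 to 98.1 CPM in replicate 3 and at 242 to 753 CPM in the others.

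Doubling the anti-CD3 coat moved many genes by a little and few by much. At 24 h, 169 of the 12280 genes tested were called, which is 1.38% of them: 64 rose (0.521%) and 105 fell (0.855%). At 48 h, 131 genes were called (1.07%), of which 102 rose (0.831%) and 29 fell (0.236%). Averaged over both times, with 8 pairs, 547 genes were called (4.45%), 276 higher (2.25%) and 271 lower (2.21%) under the weak stimulus. Pairs of equal number at both times may share mice, while the fit treats the 8 pairs as separate. With counts summed over both times within a replicate number, 266 genes were called. A call here is an adjusted p under 0.05 in edgeR's quasi-likelihood test with the pair as a block. The median change of the called genes was 0.33 on the log2 scale for rises and -0.33 for falls. Changes of at least 2-fold were seen in 23 of the called genes (0.187% of those tested), 17 of them rises and 6 falls. All 6 falls were in genes of low level, with highest group means of 0.44 to 1.96 CPM. For the 17 rises these means ran from 0.52 to 160 CPM. The pairing carried these calls: without the block no gene was called at 24 h, 48 h or their mean (514, 154 and 509 genes, or 4.19%, 1.25% and 4.14%, had an unadjusted p under 0.05). Leaving out 1 replicate number moved the count at the mean between 59, without replicate 2, and 1987, without replicate 3. Without only the 48 h pair of replicate 3, whose very weak library had the lowest intronic share, 1846, 743 and 2614 genes were called at 24 h, 48 h and the mean. The changes of Il2, Il3, Ccl4, Cth, Pdgfb and Nt5e at the mean stayed called in each of the 4 refits that left out 1 replicate number.

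Replicates differed enough in level that in most called genes the weak and very weak libraries overlapped. Only 18 of the 169 genes called at 24 h had weak and very weak libraries that did not overlap, against 2.29% of all genes tested. At 48 h this held for 3 of the 131 called genes, against 0.945% of all genes tested. Those 3 were Pdgfb, a growth factor subunit, Cep290, a cilium protein, and Map3k20, a stress kinase; Map3k20 is named because the count is small. Within pairs, 168 of the 276 rises were higher in 8 of 8 pairs and 153 of the 271 falls were lower in 8 of 8, a description only, since the calls come from a test on the same pairs. Of all genes tested, 354 were higher in 8 of 8 pairs (2.88%) and 301 lower (2.45%).

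**Figure D1:**
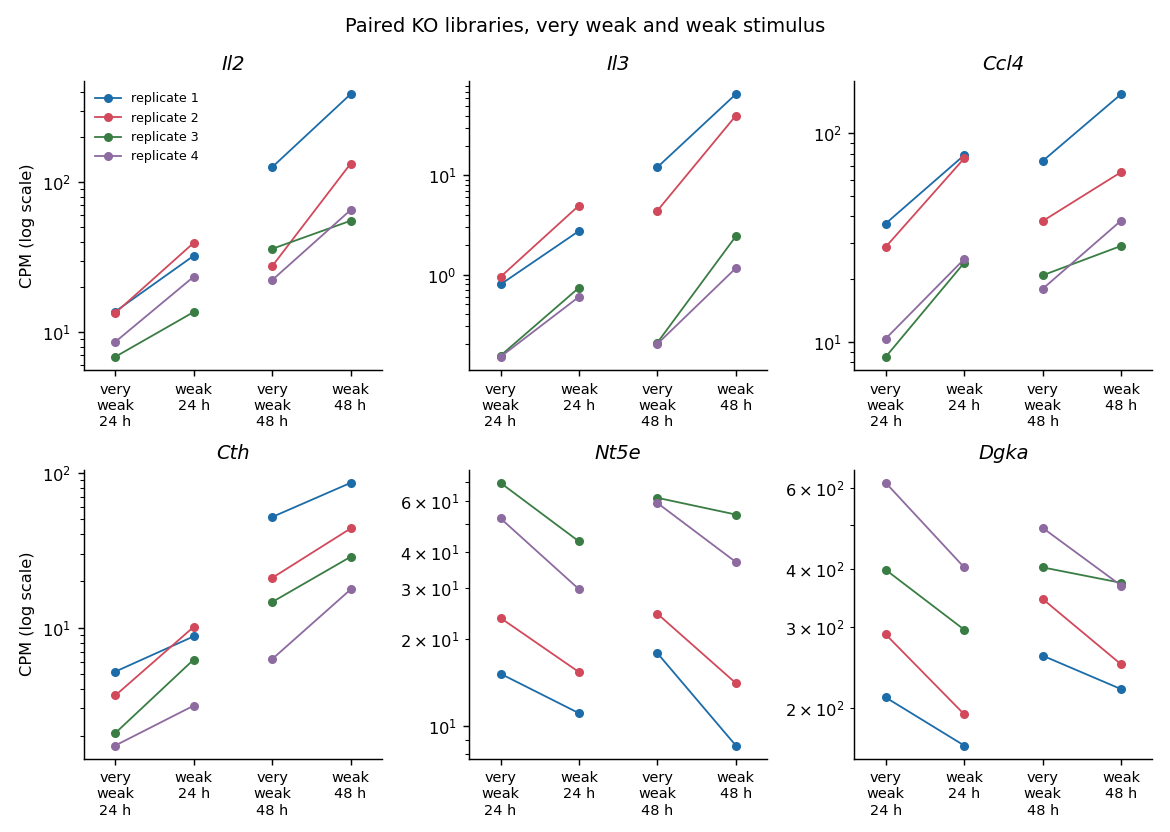
CPM on a log axis of 6 genes in the 16 KO libraries, with the very weak and weak library of a replicate number joined by a line at 24 h and 48 h (4 pairs a time). Il2, Il3, Ccl4 and Cth are higher and Nt5e and Dgka lower under the weak stimulus in 8 of 8 pairs, while weak and very weak libraries overlap at both times.

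Cytokine genes that T cells switch on through the antigen receptor were among the large rises. Il3, which encodes a growth factor for blood cell progenitors and basophils, rose most of all called genes, by 2.47 ± 0.15 (SE) on the log2 scale at the mean of both times (adjusted p = 9.29e-06). Il2, the T cell growth factor, rose by 1.42 ± 0.14 (adjusted p = 0.000344). The chemokine genes Ccl4 and Ccl3, whose products attract monocytes and T cells, rose by 1.08 ± 0.07 and 0.85 ± 0.12 (adjusted p = 2.26e-05 and 0.00268). The promoters of Il2 and Il3 are shown because their genes moved together. They are the 250 bases before the start in RefSeq on GRCm38.p6, both on the minus strand, at chr3:37125955-37126204 and chr11:54267280-54267529. Capitals mark GGAAA, the core letters that NFAT factors bind, on either strand, which 55.6% of the 27025 genes with a promoter entry also hold in this window.
Il2: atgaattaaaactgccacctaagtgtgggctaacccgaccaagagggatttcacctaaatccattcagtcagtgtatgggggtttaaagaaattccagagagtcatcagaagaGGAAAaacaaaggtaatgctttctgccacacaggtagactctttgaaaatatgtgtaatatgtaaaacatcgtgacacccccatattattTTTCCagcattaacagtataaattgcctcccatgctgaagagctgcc
Il3: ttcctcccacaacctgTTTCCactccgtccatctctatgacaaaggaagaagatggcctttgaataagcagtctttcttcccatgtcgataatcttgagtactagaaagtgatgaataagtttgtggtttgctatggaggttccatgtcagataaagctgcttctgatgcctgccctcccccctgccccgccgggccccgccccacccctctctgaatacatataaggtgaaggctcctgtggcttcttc
The Il2 window holds 2 such matches and the Il3 window 1. With a share of 55.6% over all promoters the letters set neither gene apart.

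In replicates 1 to 4, Il2 stood at 13.7, 13.4, 6.83 and 8.59 CPM under the very weak stimulus at 24 h and at 32.3, 39.4, 13.6 and 23.4 CPM under the weak one. At 48 h it stood at 126, 27.5, 35.9 and 22.2 CPM under the very weak stimulus and at 387, 133, 55.3 and 65.2 CPM under the weak one. The groups overlapped at both times, since replicate 3 under the weak stimulus at 24 h was about level with replicate 1 under the very weak one. Within pairs the fold was 2 to 2.94 at 24 h and 1.54 to 4.85 at 48 h. Intronic Il2 counts, which come from unspliced transcripts, rose as well, by 0.89 ± 0.12 (adjusted p = 0.00319).

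Il3 ran from 0.148 to 0.947 CPM under the very weak stimulus at 24 h and from 0.596 to 4.97 CPM under the weak one. At 48 h its very weak values were 12.1, 4.41, 0.206 and 0.2 CPM and its weak values 66, 40.1, 2.43 and 1.16 CPM. Replicates 1 and 2 thus made far more Il3 than replicates 3 and 4 at either dose, yet the fold within a pair lay between 5.46 and 11.8 in all of them at 48 h. The fitted fold was 4.35 at 24 h and 7.03 at 48 h. The very weak values of replicates 3 and 4 were close to the 0.148 to 0.156 CPM that 3 counts give in these libraries, so their folds are loose.

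Il3 lies on chromosome 11 beside 2 genes of the lists, and only 1 of these was called. Acsl6, an acyl-CoA synthetase that activates fatty acids, starts 38.7 kb from it (11:54303805-54364756) and rose by 1.27 ± 0.15 (adjusted p = 0.00127). Its intronic counts rose by 1.34 ± 0.22 (adjusted p = 0.0103). Csf2, the GM-CSF gene, starts 17.8 kb away on the other side and changed by 0.69 ± 0.37 (adjusted p = 0.317). At 48 h Csf2 went from 5.6, 4.93, 1.5 and 1.2 CPM to 27, 19.6, 1.9 and 1.01 CPM, so it was several-fold higher in replicates 1 and 2 and about level in replicates 3 and 4. Ccl3 and Ccl4 are neighbours on the same chromosome with overlapping RefSeq models (11:83647843-83649378 and 11:83648624-83664683). The strand setting of the counting is not stated, so reads in their overlap cannot be assigned with certainty.

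Of the 30 cytokine and chemokine genes listed, 23 were tested, and at the mean 6 were higher and 1 lower, against the 2.25% and 2.21% of all genes tested. The list's median change was 0.34, against 0.01 over all genes tested. Beside those named, the rises were Lif, an IL-6 family cytokine, at 0.39 (adjusted p = 0.0282), and Cxcl10, an interferon-induced chemokine, at 0.48 (adjusted p = 0.0274). Ltb, which encodes lymphotoxin beta of lymphoid tissue formation, fell by 0.41 (adjusted p = 0.0352) and was lower in 8 of 8 pairs. The effector cytokines Ifng and Tnf did not pass, at 0.35 and 0.17 (adjusted p = 0.256 and 0.415). Each was higher in 4 of 8 pairs.

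Members of the TNF family followed, most of them ligands that activated T cells show to other cells. Of 17 tested, 6 rose and 1 fell at the mean, and the median change was 0.20. At the mean 2.25% of all genes tested rose and 2.21% fell, the shares to set beside every list count at the mean below. Tnfsf11, which encodes RANKL, rose by 0.69 (adjusted p = 0.000308), from 136, 119, 85.5 and 53.9 CPM to 207, 219, 137 and 81.1 CPM at 24 h and from 298, 171, 171 and 89.2 CPM to 437, 279, 232 and 184 CPM at 48 h. It was higher in 8 of 8 pairs although the groups overlapped at both times. Its intronic counts rose by 0.77 (adjusted p = 0.000284). Cd70, the ligand of CD27, rose by 1.2 on the log2 scale (adjusted p = 0.0142) from a low level of at most 3.19 CPM under the very weak stimulus. Its receptor gene Cd27, a marker of naive and memory cells, fell by 0.38 (adjusted p = 0.00259) and was lower in 8 of 8 pairs. The other rises were Tnfsf14 (LIGHT) at 0.38, Cd40lg (CD40 ligand) at 0.35, Tnfsf4 (OX40 ligand) at 0.34 and its receptor gene Tnfrsf4 (OX40) at 0.27 (adjusted p = 0.018, 0.0287, 0.0478 and 0.033).

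Surface markers and factors that define activation moved less. Of 18 activation surface markers, 5 rose and none fell at the mean, with a list median of 0.05. Cd44, an adhesion receptor of activated cells, rose by 0.41, Cd83 by 0.41, the early marker Cd69 by 0.30, the transferrin receptor gene Tfrc by 0.25 and Cd200 by 0.24 (adjusted p = 0.00641, 0.0184, 0.0362, 0.0291 and 0.0193). Of 25 immediate early and activation factors, 2 rose and none fell: Irf8, an interferon regulatory factor, at 0.43 and the AP-1 subunit gene Junb at 0.29 (adjusted p = 0.0274 and 0.00761). None of the 18 calcineurin and NFAT genes tested was called at 24 h, 48 h or their mean. The shares called over all genes tested were 1.38%, 1.07% and 4.45%. Among costimulatory and inhibitory receptors, 2 of 17 rose and 1 fell. Cd226, an activating receptor, rose by 0.44 and Cd80, a CD28 ligand, by 0.51 (adjusted p = 0.0012 and 0.0326), and Vsir, which encodes the inhibitory receptor VISTA, fell by 0.20 (adjusted p = 0.0372).

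**Figure D2:**
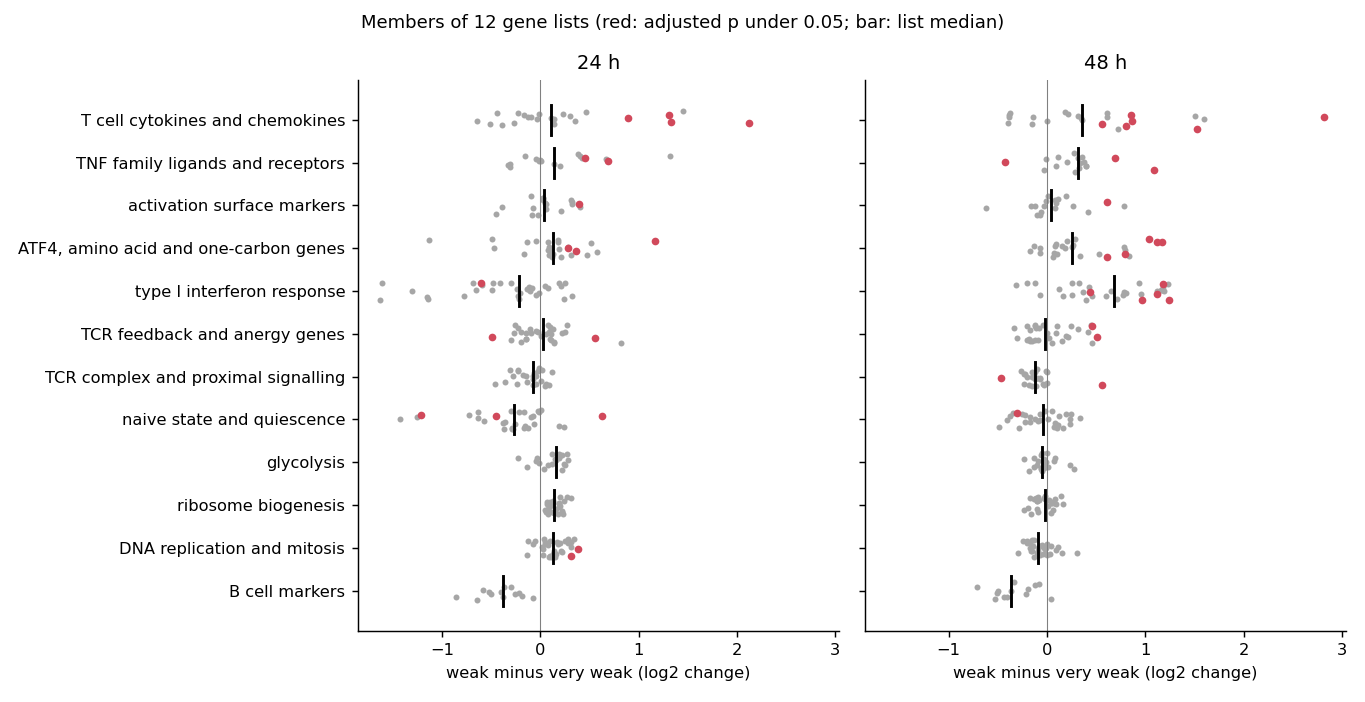
Log2 change from the very weak to the weak stimulus for each tested member of 12 gene lists at 24 h and 48 h; red points passed an adjusted p under 0.05, grey points did not, and black bars are list medians. The cytokine list has a median of 0.11 at 24 h, with 12 members above 0 and 11 below, and of 0.35 at 48 h. The type I interferon list has a median of -0.22 at 24 h and 0.68 at 48 h.

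Parts of the receptor pathway itself went down. Cd3e, a signalling chain of the receptor complex, fell by 0.38 (adjusted p = 0.00325), from 308, 292, 400 and 422 CPM to 253, 220, 296 and 396 CPM at 24 h and from 251, 334, 431 and 422 CPM to 168, 216, 354 and 326 CPM at 48 h. It was lower in 8 of 8 pairs, with overlapping groups. The kinase gene Fyn fell by 0.18 and Themis, a regulator of receptor signalling, rose by 0.32 (adjusted p = 0.034 and 0.0315). These were the 3 calls among 24 genes of the receptor complex and proximal signalling, whose median change was -0.11.

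Feedback genes moved in both directions, 3 up and 4 down of 30 tested. The 2 diacylglycerol kinase genes Dgka and Dgkz, whose enzymes remove the second messenger that feeds Ras and protein kinase C, fell by 0.40 and 0.30 (adjusted p = 0.00189 and 0.0164). Dgka stood at 211, 289, 399 and 616 CPM under the very weak stimulus at 24 h and at 166, 194, 296 and 404 CPM under the weak one. At 48 h it went from 260, 345, 404 and 492 CPM to 220, 249, 374 and 369 CPM. All 8 pairs were lower under the weak stimulus, with overlapping groups at both times. Spry1, an inhibitor of Ras signalling, and Ubash3b, a phosphatase that dampens receptor signalling, fell by 0.25 and 0.22 (adjusted p = 0.0179 and 0.0253). The 3 rises were the NF-kB regulator Nfkbid at 0.40 and the phosphatase genes Dusp5 at 0.36 and Dusp14 at 0.28 (adjusted p = 0.00641, 0.0274 and 0.0472).

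Genes of the naive, quiescent state gave few calls at either time. Of 30 tested, 26 were below 0 at 24 h, with a median of -0.26, but only 2 passed as falls and 1 as a rise. Of all genes tested 0.855% fell and 0.521% rose at 24 h. The list's median within a pair at 24 h was -0.08, -0.18, -0.15 and -0.50 in replicates 1 to 4. At 48 h the median was -0.04, and 1 gene passed. Pik3ip1, an inhibitor of PI3 kinase that resting T cells express, went from 5.46, 6.18, 10.2 and 26.4 CPM to 3.77, 3.64, 5.53 and 5.16 CPM at 24 h, and fell by 1.21 ± 0.24 (adjusted p = 0.0314). At 48 h it was at 10.3 to 11.2 CPM and at 9.34 to 11.2 CPM, and its change was -0.09 (adjusted p = 0.878). The size at 24 h leaned on replicate 4, which had the highest very weak value, and without it the change was -0.74 (adjusted p = 0.213). At the mean 5 members fell, namely Pik3ip1, Itgb7 at -0.38, Ripor2 at -0.31, Gimap6 at -0.28 and Gimap4 at -0.20 (adjusted p = 0.0394, 0.0311, 0.0295, 0.00567 and 0.0302), and Id3 rose by 0.37 (adjusted p = 0.0112). Itgb7 encodes a gut-homing integrin chain and Id3 an inhibitor of E proteins.

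Other falls at 24 h, each lower in 4 of 4 pairs, were the nuclear long RNA Neat1 at -1.08, the cytokine gene Clcf1 at -1.01, the nucleoside transporter gene Slc28a2b at -0.92, the GABA-B receptor subunit gene Gabbr1 at -0.90 and the thyroid hormone receptor gene Thra at -0.85 (adjusted p = 0.0195, 0.0151, 0.0238, 0.0195 and 0.0271). For each of these the very weak library of replicate 4 was the highest, with Neat1 at 105 CPM there and at 17.4, 38.6 and 34.4 CPM in the others. Cdkn1b, which encodes the cell cycle brake p27, fell at 24 h by 0.60 and stood at 64.1 CPM in that very weak library of replicate 4, against 22, 29.6 and 36.4 CPM in the others (adjusted p = 0.0304). Leaving out replicate 4 left 1 gene called at 24 h, as did leaving out replicate 2.

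Among the falls called at both times was Nt5e, which encodes CD73, an ectoenzyme that makes adenosine. It fell by 0.65 ± 0.08 (adjusted p = 0.00152), from 15.2, 23.7, 69.5 and 52.4 CPM to 11.1, 15.4, 43.6 and 29.8 CPM at 24 h and from 17.9, 24.5, 61.7 and 59.2 CPM to 8.58, 14.1, 54 and 37 CPM at 48 h. Here replicates 3 and 4 were the high ones, the reverse of the cytokine genes. At the mean of both times Gucy1a1, a subunit of soluble guanylate cyclase, fell by 0.67, Npas4, an activity-induced transcription factor of neurons, by 0.67, Art2b, a surface ADP-ribosyltransferase, by 0.66, the zinc finger gene Zfp467 by 0.66 and the scaffold gene Cnksr3 by 0.62 (adjusted p = 0.00829, 0.0166, 0.0133, 0.0104 and 0.00143). Each was lower in 8 of 8 pairs. At 48 h Izumo1r, the folate receptor 4 gene that regulatory and anergic T cells carry, fell by 0.64, and Akr1c18, a steroid reductase gene, by 0.64 (adjusted p = 0.00437 and 0.0095).

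B cell genes made up part of the falls. H2-Aa, an MHC class II chain, fell by 0.65, Cd79a, a chain of the B cell receptor, by 0.58 and the kinase gene Btk by 0.59 (adjusted p = 0.00743, 0.0184 and 0.0108). Of 13 B cell markers tested, 4 fell, among them H2-Aa, Cd22 and Cd79a, none rose, and all 13 were below 0 at the mean, with a median of -0.31. The summed level of the 13 markers in the table ran from 87.3 to 240 CPM under the very weak and from 75.4 to 190 CPM under the weak stimulus at 24 h. At 48 h it ran from 179 to 305 CPM and from 167 to 256 CPM, and no marker was at 0 in any group. In such bulk samples fewer cells of a type and less RNA per cell cannot be told apart. Of the NK cell markers 1 of 8 tested rose, Gzma, a granzyme gene at 0.35 to 5.81 CPM, by 0.92 (adjusted p = 0.0291). Of 7 CD8 T cell markers tested, Crtam, an adhesion receptor gene, fell by 0.46 at the mean (adjusted p = 0.0224). No myeloid, erythroid and platelet or innate-like T cell marker was called, but only 6 of 22, 3 of 10 and 2 of 7 could be tested. What these cells contribute to the other changes was not tested.

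Genes that supply amino acids gave several rises and no falls. Of 25 genes of the ATF4, amino acid and one-carbon list, 6 rose and none fell at the mean, and the median was 0.18. ATF4 is the transcription factor that cells use when amino acids run short. Cth, the enzyme that makes cysteine from cystathionine, rose by 1.10 ± 0.11 (adjusted p = 0.000344). It went from 5.19, 3.64, 2.08 and 1.73 CPM to 8.77, 10.1, 6.21 and 3.13 CPM at 24 h and from 51.7, 20.9, 14.6 and 6.25 CPM to 85.9, 43.6, 28.6 and 17.6 CPM at 48 h. Every pair was higher, by 1.66 to 2.99 times, and at 48 h replicate 1 under the very weak stimulus still exceeded replicates 2, 3 and 4 under the weak one. Sesn2, a stress-induced inhibitor of mTORC1, rose by 0.56, the asparagine synthetase gene Asns by 0.55, the mitochondrial folate enzyme gene Mthfd2 by 0.31, the serine synthesis gene Psat1 by 0.18 and the transaminase gene Bcat1 by 0.18 (adjusted p = 0.00354, 0.0163, 0.00674, 0.0362 and 0.0488). At 48 h alone Chac1, which degrades glutathione, and the arginine transporter gene Slc7a3 rose by 1.17 and 1.12 (adjusted p = 0.0496 and 0.0095).

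Further large rises were in single genes of other roles. Pdgfb rose by 0.93 ± 0.08 (adjusted p = 0.000302), and its groups did not overlap at either time, with at most 17.8 CPM very weak and at least 19.9 CPM weak at 24 h, and at most 24.6 CPM against at least 28.6 CPM at 48 h. Nos2, inducible nitric oxide synthase, rose by 1.41, the matrix protein gene Ccn1 by 1.11, Penk, an opioid peptide precursor, by 0.99 and Perp, a membrane protein gene that p53 induces, by 0.96 (adjusted p = 0.00674, 0.00173, 0.00641 and 0.000578). All 4 were higher in 8 of 8 pairs. Survival and cell cycle genes changed by less. Cdkn1a, which encodes the CDK inhibitor p21, rose by 0.59 (adjusted p = 0.00127), from 51.5, 46.6, 47.1 and 60.3 CPM to 72.4, 67.8, 68.1 and 111 CPM at 24 h without overlap. Its 48 h values lay between 55.9 and 150 CPM under the very weak and between 99.8 and 231 CPM under the weak stimulus. Bcl2l1, which encodes the survival protein BCL-XL, rose by 0.43, while Bcl2 and the pro-apoptotic Bcl2l11 (BIM) fell by 0.26 and 0.25 (adjusted p = 0.0045, 0.0409 and 0.0421). At the mean Cdkn1a and Bcl2l11 were the 2 calls among 30 published miR-17-92 targets, against 4.45% of all genes tested. The median of these targets was -0.01. Ikzf4, a zinc finger factor on the same list, fell at 24 h by 0.70, and Tnfaip3, an NF-kB inhibitor, rose at 48 h by 0.50 (adjusted p = 0.0177 and 0.029).

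Genes of the helper lineages gave few calls, and the lists did not share a direction. Above 0 at the mean were 10 of 12 Th1, 3 of 7 Th2, 7 of 8 Th17, 3 of 11 follicular helper and 7 of 14 regulatory genes. At the mean 1 of 12 Th1 genes rose, Stat4 by 0.26, 1 of 7 Th2 genes, the chemokine receptor gene Ccr8 by 0.51, and 1 of 8 Th17 genes, the chemokine receptor gene Ccr6 by 0.78 (adjusted p = 0.038, 0.0142 and 0.00857). Of 11 follicular helper genes, Sh2d1a, which encodes the adaptor SAP, rose by 0.55 and Pou2af1, a coactivator, fell by 0.24 (adjusted p = 0.00674 and 0.0399). Of 14 regulatory T cell genes, Izumo1r and Capg fell by 0.42 and 0.24 and Swap70 rose by 0.23 (adjusted p = 0.00312, 0.0342 and 0.0451), with a list median of -0.01. Of 22 NF-kB genes Nfkb2 rose by 0.26 beside Nfkbid, and of 22 heat shock and unfolded protein genes the chaperone gene Hsp90aa1 rose by 0.27 and Atf3 by 0.54 (adjusted p = 0.00674, 0.0182 and 0.0401). Of 28 sterol and fatty acid genes Idi1, an enzyme of isoprenoid synthesis, rose by 0.22 (adjusted p = 0.0243) beside Acsl6.

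Growth programmes differed in sign between the times, a difference that edgeR called for no gene. Of 28 ribosome biogenesis genes, 28 were above 0 at 24 h (median 0.13) and 12 at 48 h (median -0.03), and none was called at either time or at the mean. Glycolysis genes had medians of 0.16 and -0.05, with no call among 21. DNA replication and mitosis genes had medians of 0.13 and -0.09. At 24 h 2 of 32 rose, the cyclin genes Ccna2 and Ccnb1, against 0.521% of all genes tested. The change of the strength effect from 24 h to 48 h was called for 0 of 12280 genes by edgeR, with 1677 (13.7%) at an unadjusted p under 0.05. DESeq2 called 47 (0.383%), among them Rrs1 of the ribosome biogenesis list at -0.47 and Ccna2 at -0.40.

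**Figure D3:**
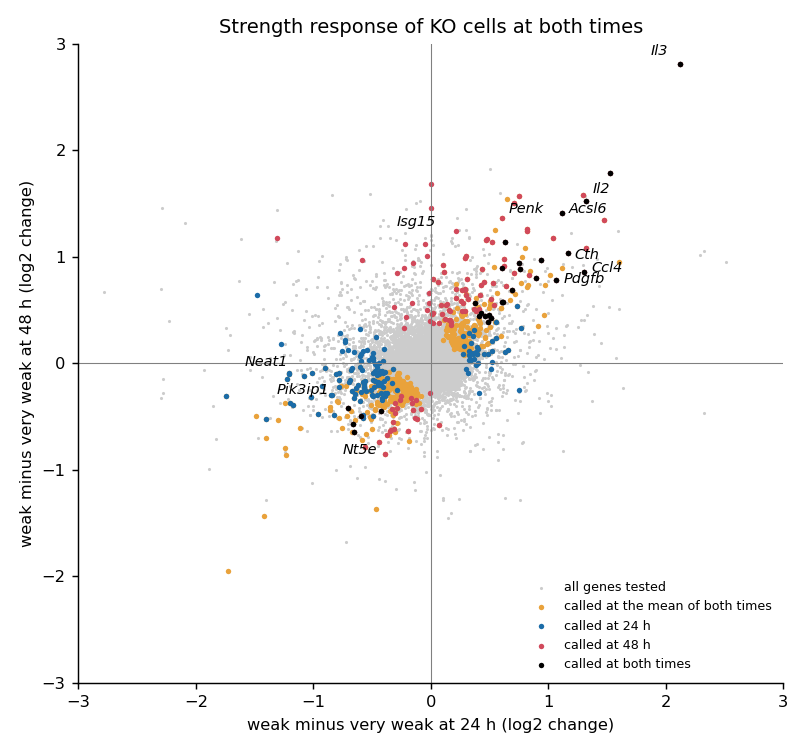
Log2 change from the very weak to the weak stimulus in KO cells at 24 h (horizontal) against 48 h (vertical), 1 point per gene, with 2 of 12280 genes outside the axes. The genes called at both times, 28 in black, all have the same sign at both, and Il3 is farthest from the origin among them.

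The calls at 24 h and 48 h shared 28 genes, which is 16.6% of the 24 h calls and 21.4% of the 48 h calls. All 28 had the same direction. Of the 169 genes called at 24 h, 83.4% had the same sign at 48 h, and 85.5% of the 48 h calls had the same sign at 24 h, against 53.8% of all genes tested. Over all genes the changes at both times had a Pearson r of 0.171, given as a description since genes are not independent and the weakly expressed ones carry mostly counting error.

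Some interferon-induced genes were called at 48 h, although edgeR called the difference between the times for none. DESeq2 called that difference for some members of the list, Ifit2, Stat2, Ifi214, Ifi209 and Rtp4 among them. Of 32 tested, 5 rose at 48 h and none fell, against 0.831% and 0.236% of all genes tested. Of the list 28 were above 0 at 48 h, and the median was 0.68. At 24 h 7 were above 0, the median was -0.22 and 1 fell, Ifi214, against 0.855% of all genes tested. At the mean 1 member was called, Bst2, which encodes the antiviral protein tetherin and changed by 0.25 at 24 h and 0.36 at 48 h (0.31, adjusted p = 0.0333). Isg15, a ubiquitin-like antiviral protein gene, rose by 1.24, Oasl1 by 1.18, the RNA-binding Ifit1 by 1.12, the RNA sensor gene Oas1a by 0.97 and Ifit2 by 0.44 at 48 h (adjusted p = 0.0315, 0.0273, 0.0378, 0.0122 and 0.0237). The call of Isg15 was lost without replicate 2 or replicate 4 (adjusted p = 0.0821 and 0.155). The list's rise was larger in replicates 3 and 4, where the median change within a pair was 1.21 in each, than in replicates 1 and 2, where it was 0.22 and 0.41. Summed NK cell markers at 48 h were at 905 and 1260 CPM in the very weak libraries of replicates 1 and 2 and at 425 and 580 CPM in those of replicates 3 and 4. Summed myeloid markers were there at 225, 136, 22.6 and 36.5 CPM, with Fcgr1, C1qa, C1qc, Clec9a and Fcna at 0 in all 4. The NK list holds Il2rb, Gzmb and Prf1, which are also members of the list of IL-2 and STAT5 response genes, so its sum need not track NK cells. The part of NK or myeloid cells in the result was not tested.

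Isg15 shows how the levels were arranged. At 24 h it lay between 1.58 and 4.36 CPM in all 8 libraries. At 48 h it stood at 642, 312, 13.5 and 11.1 CPM under the very weak stimulus and at 842, 513, 48.5 and 57.3 CPM under the weak one, so replicates 1 and 2 were already high at the lower dose and replicates 3 and 4 gained 3.59-fold and 5.18-fold. Ifit1 had the same layout, at 355, 171, 8 and 8 CPM against 487, 247, 27.5 and 36.6 CPM. The groups overlapped for both genes.

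**Figure D4:**
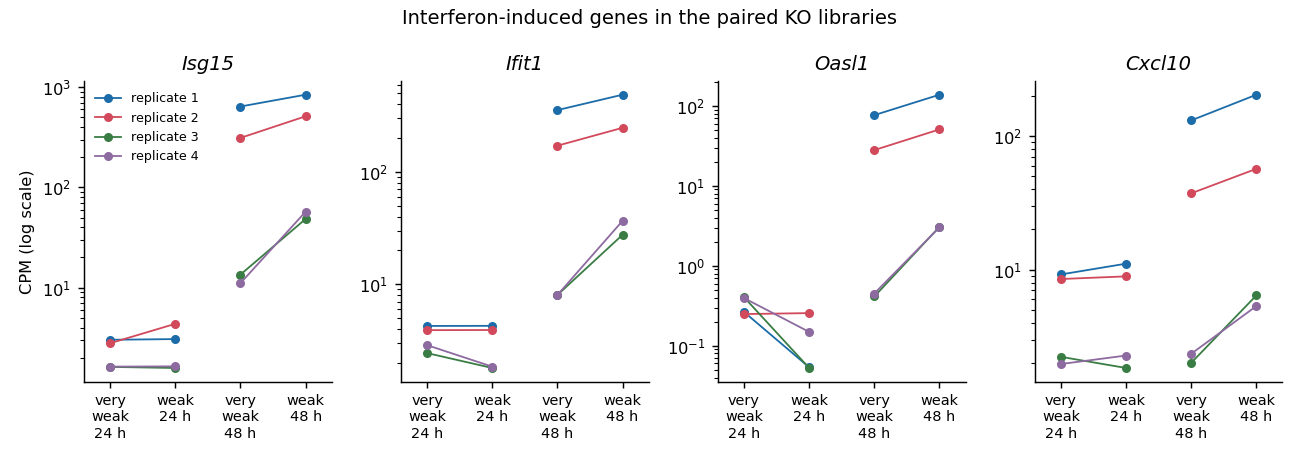
CPM on a log axis of 4 interferon-induced genes in the 16 KO libraries, pairs joined by lines. At 48 h replicates 1 and 2 lie far above replicates 3 and 4 at either dose, and every line rises at 48 h, while at 24 h the levels are low.

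The interferon genes themselves appeared in the same libraries. Ifnb1, which encodes interferon beta, had 0 counts in all 8 libraries at 24 h, which allows up to 0.156 CPM there (3 counts, counting error only). At 48 h it stood at 11.5, 1.8, 0.155 and 0 CPM under the very weak stimulus and at 36.6, 5.75, 0.341 and 0.252 CPM under the weak one, and rose by 1.69 ± 0.23 (adjusted p = 0.0112). DESeq2 did not call it (2.30, adjusted p = 0.788). Ifna4, an interferon alpha gene, followed it with 12, 1.85, 0 and 0.2 CPM against 32.3, 5.55, 0.195 and 0.252 CPM (1.46, adjusted p = 0.0257, and 0.826 by DESeq2). In both genes the rise rests on replicates 1 and 2, since the other libraries were near the level of a few counts. In WT cells at 48 h Ifnb1 reached 2.04 CPM at most and in TG cells 0.0508 CPM. The 250 bases before the Ifnb1 start, at chr4:88522795-88523044 on the minus strand (RefSeq, GRCm38.p6), are shown for the sites its known activators use. Capitals mark AANNGAAA, the core letters of interferon regulatory factor sites, 3 times, and GGGA and TTCC with 2 bases between them, letters of an NF-kB site, once, with both strands searched and no overlap.
Ifnb1: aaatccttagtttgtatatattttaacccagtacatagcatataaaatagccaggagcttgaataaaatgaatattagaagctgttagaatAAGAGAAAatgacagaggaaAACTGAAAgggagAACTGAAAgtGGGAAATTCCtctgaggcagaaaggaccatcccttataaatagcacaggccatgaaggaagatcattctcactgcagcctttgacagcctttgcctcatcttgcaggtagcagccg
At least 1 match to AANNGAAA is found in 21.6% of all promoter windows and to the NF-kB letters in 1.17%.

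Intronic counts, which follow unspliced RNA, showed the same pattern with fewer calls. At the mean 34 of 10877 genes were called (0.313%), 13 higher and 21 lower, and 27 of the 34 were also called on the full counts, with the same sign in 34 of 34. The largest intronic rises beside Acsl6, Il2 and Tnfsf11 were Anxa3, a membrane-binding annexin, at 1.34 and the stress factor gene Atf3 at 0.83 (adjusted p = 0.00598 for both). The falls held Cd27 at -0.75, Zfp467 at -0.81, Itgb7 at -0.59, Dgka at -0.48, Izumo1r at -0.50 and Gimap3, Gimap4 and Gimap6 at -0.57, -0.46 and -0.52. Of the 491 genes called on full counts and tested in introns, 90.8% had the same sign there, against 65.1% of all genes tested in both. Their median absolute change was 0.32 on full counts and 0.26 in introns. At 24 h edgeR called no gene in introns, with 1084 (9.97%) at an unadjusted p under 0.05, and DESeq2 called 13 (0.12%). At 48 h 5 were called (0.046%): Tnfsf11, Bcl2l1, Serpinb9 and Plagl1 rose and Hmgn2 fell.

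KO cells were then set beside WT and TG cells given the same doses, in a fit of all 48 stimulated libraries with pairs as blocks. It pools the spread over genotypes and calls 1691 of 12837 genes in KO cells (13.2%) at the mean. The KO and WT effects differed for 0 genes at the mean, with 375 at an unadjusted p under 0.05 (2.92%) and 0 by DESeq2. The median SE of that difference was 0.09, so for many genes a difference as large as a called change could go unseen. Of the 1691 KO calls, 97.6% had the same sign in WT cells, against 74% of all genes, and 466 genes were called in both, 27.6% of the KO calls and 78.1% of the 597 WT calls (4.65% of genes). The leading genes had these values side by side in that fit. Il2 changed by 1.43 in KO, 1.53 in WT and 1.42 in TG cells, and Il3 by 2.46, 1.93 and 1.70. Cth changed by 1.09, 0.96 and 0.88, and Nt5e by -0.65, -0.60 and -0.63. The KO and TG effects of these 4 genes did not differ by the test (adjusted p = 0.996, 0.268, 0.586 and 0.973), with SEs of the difference from 0.19 to 0.36.

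A difference between KO and TG effects was called for 56 genes at the mean (0.436%), with 37 higher and 19 lower in KO cells. DESeq2 called 427 (3.33%). These calls depended on single replicates: edgeR called 0 genes without replicate 1 or replicate 4, 2 without replicate 3, 15 without replicate 2 and 0 without the pairs as a block. Ccl4 had the largest KO rise among them: it changed by 1.08 in KO, 0.73 in WT and 0.50 in TG cells (difference 0.58 ± 0.13, adjusted p = 0.0496). Tnfsf8, which encodes CD30 ligand, changed by 0.17 in KO and -0.30 in TG cells (difference 0.46 ± 0.09, adjusted p = 0.0333). The transferrin receptor gene Tfrc changed by 0.25 and -0.08 and Stat4, a factor of Th1 differentiation, by 0.26 and -0.07 (adjusted p = 0.0496 and 0.0482). On the lower side, Abtb1 changed by -0.54 in KO and -0.01 in TG cells and the Ral regulator gene Rgl2 by -0.35 and 0.09 (adjusted p = 0.0333 and 0.0482). Tfrc and Stat4 are named after their values were seen. At 24 h alone edgeR called no difference between KO and TG cells, with 1329 genes (10.4%) at an unadjusted p under 0.05, and DESeq2 called 7 (0.0545%). At 48 h alone 3 genes differed (0.0234%), Tnfsf8 and Ifit2 being higher in KO cells by 0.76 and 0.69 and Mospd3 lower by 0.58 on the log2 scale (adjusted p = 0.0259 for each), and DESeq2 called 33 (0.257%).

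**Figure D5:**
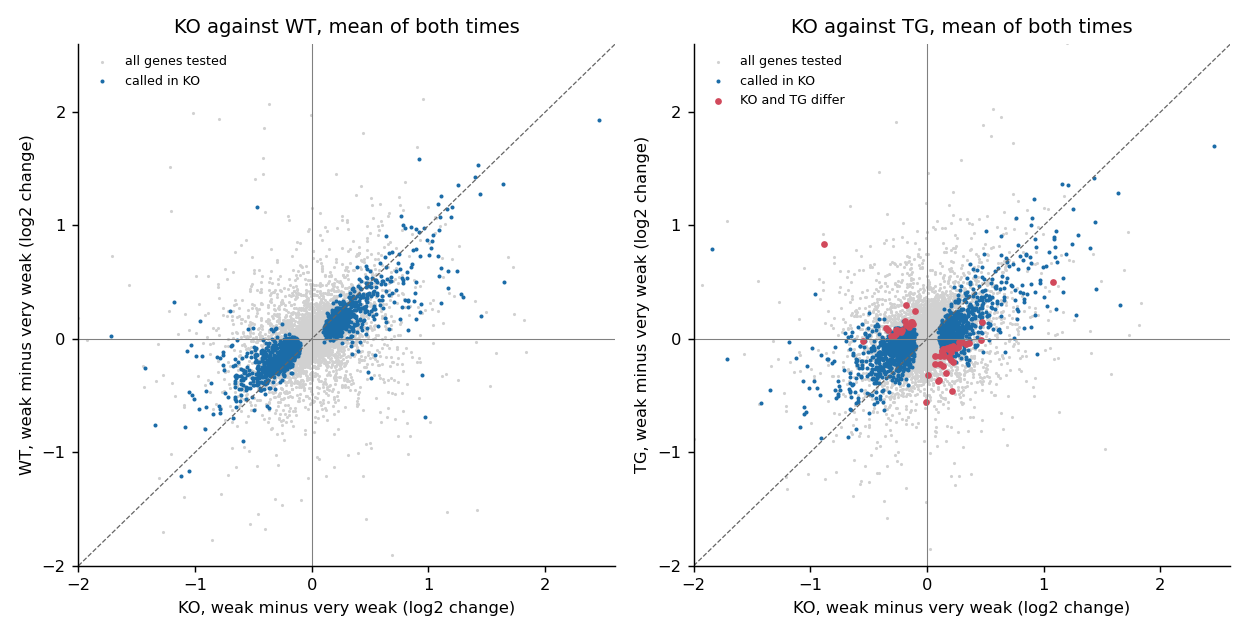
Log2 change from the very weak to the weak stimulus, mean of both times, in KO cells (horizontal) against WT (left) and TG cells (right), 1 point per gene, with the dashed line marking equal change; some genes lie outside the axes. Of the blue genes called in KO cells 97.6% share their sign with WT and 71.9% with TG cells, against 74% and 56.4% of all genes. The 56 red genes differ between KO and TG cells.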

How the data were processed

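The authors deposited raw read counts per gene as whole numbers, for full transcripts and, separately, for introns. The tools STAR 2.5.2a, FastQC 0.11.5, edgeR 3.24.3 and R 3.5 and the build mm10 come from the submitters' processing notes. Which counting program, annotation and strand setting the authors used is not given in the sources used here. Libraries were made with a stranded kit and sequenced as single-end reads of 76 bases, per the labels' protocols. Of 24028 gene IDs, 23968 matched a RefSeq symbol and 7 a GENCODE symbol.

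Counts of the 16 KO libraries were tested with edgeR 4.0.16 (R 4.3.3), with its quasi-likelihood test, TMM scaling (factors from 0.961 to 1.06) and filterByExpr, with 1 block per pair and 1 strength coefficient per time (6 residual degrees of freedom). Log2 changes carry standard errors, and p-values are Benjamini-Hochberg adjusted over all genes tested. The pairing comes from the replicate numbers in the titles. Deviations of same-numbered libraries from their group means correlated by 0.372 to 0.799 in the 8 pairs. Very weak and weak libraries of different number at one time correlated by -0.733 to 0.642. At 48 h the weak library of replicate 3 correlated more with the very weak one of replicate 4 (0.6416) than with its own partner (0.5965). KO, WT and TG effects were compared in a fit of 48 libraries (18 residual degrees of freedom). CPM values use TMM-scaled library sizes. The script was tested on simulated data. DESeq2 1.42.0 and other settings served as alternatives, described in the closing section.

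The comparison, the 34 gene lists and the rules were chosen with earlier results of these data known. Named genes were the 10 largest rises and falls per contrast among called genes of at least 5 CPM that moved alike in every pair, up to 5 per direction for differences between times or genotypes, up to 4 members of each list, and cytokines of at least 1 CPM. Unnamed models and receptor segments were left out. Genes outside this rule (further called list members, Ifna4, Ikzf4, Tnfaip3, Map3k20, Il1a, Stra6, Gimap3, Anxa3, Serpinb9, Plagl1 and Hmgn2) were chosen after their values were seen. Reads carry no molecular identifiers, so limits cover counting error only.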

Additional observations from a re-analysis of the deposited data

Results flagged for a closer look

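In groups of 4 libraries, 16 of 416 held a highest or lowest library whose gap to the next, relative to the group's range, was above Dixon's 95% critical value. Chance flags about 1 in 20 groups. Replicate 1 stood apart at 48 h for Il2 under the very weak stimulus at 126 CPM (next 35.9), for Dusp14 under the weak one at 60.3 CPM (next 24.2), for Tnfsf4 under the weak one at 158 CPM (next 75.9), and for Nfkbid under both, at 74.5 and 83.1 CPM (next 44.4 and 52.1). For Ifnb1 it stood at 11.5 and 36.6 CPM under the very weak and weak stimulus (next 1.8 and 5.75), and for Ifna4 at 12 and 32.3 CPM (next 1.85 and 5.55). Cd79a was lowest in the weak 48 h library of replicate 1, at 2.34 CPM (next 3.85). Ikzf4 was highest in the weak 48 h library of replicate 2, at 16.7 CPM (next 11.6). Junb was highest in replicate 2 at 24 h under both stimuli, at 151 and 198 CPM (next 76.5 and 99.1). At 24 h replicate 4 was highest for Cdkn1a under the weak stimulus at 111 CPM (next 72.4) and for Thra under the very weak one at 13.8 CPM (next 7.31), and Penk was lowest in replicate 3 under the weak stimulus at 0.632 CPM (next 1.44).

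A difference in strength effect between KO and TG cells was called for 56 genes, by the test of the difference itself, and for 0 to 15 when each replicate was left out. The largest differences among those named were lower in KO cells for Abtb1 at -0.53, Tsen34 at -0.48, Rgl2 at -0.45, Mospd3 at -0.35 and Clasrp at -0.34. They were higher for Zfp994 at 0.67, Ccl4 at 0.58, Phf11b at 0.55, Cep290 at 0.47 and Tnfsf8 at 0.46.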

How the results depend on the processing

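The number of called genes depended on the pairing and on single replicates. Without the replicate block, 0 genes were called at 24 h, 48 h, the mean, in introns and for KO against TG cells. A fit of all 58 libraries without the block also gave 0 at 24 h, 48 h and the mean. Leaving out each replicate gave 1 to 873 genes at 24 h, 18 to 547 at 48 h, 59 to 1987 at the mean, 0 to 3 for the change from 24 h to 48 h, 0 to 15 for KO against TG and 0 to 82 in introns. The highest count came without replicate 3, except for KO against TG, where it came without replicate 2. Without replicate 3 at 48 h alone, a choice made after seeing the data, 1846, 743, 2614 and 16 genes were called at 24 h, at 48 h, at the mean and for their difference. Replicates 1 and 2 alone gave 495 at 48 h, 1191 at the mean, 10 for the time difference and 1 for KO against TG; replicates 3 and 4 alone gave 5, 43, 24, 11 and 6 for 24 h, 48 h, mean, time difference and KO against TG. The 48-library fit called 1545, 828 and 1691 genes at 24 h, 48 h and the mean. DESeq2 called 570 at 24 h, 312 at 48 h, 47 for the time difference and 427 for KO against TG. Without the filter on low counts 376, 277 and 20 genes were called at 24 h, 48 h and for the time difference, and 176 in introns. Each time fitted apart gave 1260 and 24 genes, and counts summed over both times 266. The cause of these differences was not tested. KO against WT gave 0 under every alternative run. Of the log2 changes of named genes, 110 were refitted: 2 reversed within replicates 3 and 4, Csf2 at -0.46 and Tnf at -0.17, neither of which was called. The 110 included changes that were not called, Csf2 and Tnf among them, which had no call to lose. Called changes that kept their direction but lost the call numbered 106 without the block, where no call was left. They numbered 57, 81 and 75 without replicates 1, 2 and 4, and 0 without replicate 3. Within replicates 3 and 4 there were 90, within replicates 1 and 2 there were 11, and with DESeq2 there were 2. Of 102 list medians compared, 0 moved by more than their spread over pairs. That spread takes in the pairs of both times and is wide for some lists, at 0.63 for the type I interferon list.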

Other observations

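Among the 23 genes called at the mean with at least a 2-fold change, all 6 falls and several rises lay below the 5 CPM of the naming rule. The 4 named here were picked out after their values were seen. Il1a, an alarm cytokine gene, rose by 1.66 with a highest group mean of 3.25 CPM, and Stra6, a retinol transporter gene, by 1.44 at 3.76 CPM (adjusted p = 0.00173 and 0.00259, edgeR). Mcpt8 and Prss34, protease genes known from basophils, fell by 1.02 and 1.05 with highest group means of 1.73 and 1.47 CPM (adjusted p = 0.0221 and 0.0399).

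DESeq2's 47 genes for the change of the strength effect from 24 h to 48 h held interferon-induced members such as Ifit2 (0.66), Stat2 (0.82), Herc6 (0.74), Ifi214 (0.94), Ifi213 (1.83) and Rtp4 (2.53), given as the 48 h change minus the 24 h change. These 6 changes lay below 0 at 24 h and above 0 at 48 h. Those with a negative difference held the ribosome assembly genes Rrs1 (-0.47), Grwd1 (-0.41) and Bysl (-0.41) and the mitotic genes Ccna2 (-0.40) and Ube2c (-0.60), above 0 at 24 h and below 0 at 48 h. edgeR called none of them, and they were picked out after their values were seen.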
